A study of Mus musculus with 6 samples.

Results

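The enzymes that break down pyrimidines were followed in the lungs of 3 knockout and 3 wild type mouse embryos. The set holds 6 genes, Upb1, Dpys, Dpyd, Tymp, Upp1 and Cda, of 18217 genes that the array names, and it was chosen by function around Upb1, whose lower signal in the knockout lungs was already known from these arrays. Every probe that the array assigns to these genes was taken, 7 in all, of which 2 are for Dpys and 1 is for each other gene. Because the comparison of knockout with wild type chose the set, the differences of the 6 members are given as a description and support nothing by themselves.

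The knockout embryos carried 15-1Flox/Flox and 15-2-/-, and the wild type embryos 15-1+/+ and 15-2+/+. ECAT15-2 is Dppa2 and ECAT15-1 is Dppa4, so that every knockout embryo was also homozygous for the floxed Dppa4 allele. All embryos were E18.5 fetuses from intercrosses of 15-1+/Flox, 15-2+/- parents. Per the labels the line began with 129Sv embryonic stem cells, was bred to C57/BL6 and was crossed once to Cre or FLPe transgenic mice, whose own background was not known, so the strain mixture of each embryo is not known. Whole lung RNA of 1 embryo was labelled with Cy3 for each array. A level is the log2 intensity of a probe relative to the 75th percentile of its array. Levels of different probes are not compared with each other as amounts of transcript. Sums over marker lists add probe intensities only.

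Pyrimidine breakdown starts with nucleosides. Cytidine deaminase turns cytidine into uridine, and uridine phosphorylase and thymidine phosphorylase release the free bases uracil and thymine. Dihydropyrimidine dehydrogenase (Dpyd) reduces the base, dihydropyrimidinase (Dpys) opens the ring, and beta-ureidopropionase (Upb1) splits the open chain into beta-alanine or beta-aminoisobutyrate with ammonia and carbon dioxide. Liver and kidney are the tissues best known for the complete route, and Dpyd is widely known as the enzyme that inactivates the drug 5-fluorouracil.

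Before the members, the arrays were checked against their labels. Dppa2 had levels of -4.94, -4.98 and -4.08 in knockouts 1, 2 and 3, and of -3.25, -3.52 and -3.57 in wild types 1, 2 and 3. The difference of -1.22 (SE 0.25) did not pass the threshold of the fit over all features (limma adjusted p = 0.0604), and the position of its probe relative to the deletion was not checked here. Dppa2 was well above background on all 3 knockout arrays and all 3 wild type arrays, and Dppa4 was below background on all 6. Uty, Kdm5d, Eif2s3y and Ddx3y, which lie on the Y chromosome, were above background in wild types 1 and 2 only, and Xist only on the other 4 arrays, so sex was not balanced between the groups. Wild types 1 and 2 shared a slide with knockout 3, knockouts 1 and 2 lay together on another and wild type 3 on a slide without other arrays of the study. All 10 lung markers tested were well above background. Among them were the surfactant genes Sftpc, with a difference of 0.12 (SE 0.12), and Sftpa1, with -0.18 (SE 0.12) and -0.51 at another probe. Of the 10, each by its probe of highest mean, 0 passed the threshold (limma). By these probes 1, Scgb1a1, the club cell secretoglobin, had an unadjusted p under 0.05 (-1.73, SE 0.41). That limit was also met by 5101 of the 19867 features tested, 25.7%.

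Of the 6 enzymes, Upb1 was lower in the knockout lungs, Dpyd, Tymp and Cda had differences of -0.14 to 0.17 on the log2 scale that did not pass the threshold, and Dpys and Upp1 were too dim for a test. Thus 4 of the 6 genes entered the fit over 19867 features, of which 1 was called lower, 0 were called higher and 3 did not pass. Over all features 1.34% were called (limma, adjusted p under 0.05), 0.619% lower and 0.725% higher in the knockout lungs, and nothing is read from the members' count against this share. The 123 lower and 144 higher features became 138 lower and 59 higher with quantile normalization, 240 lower and 82 higher with median scaling and 137 lower and 60 higher with the authors' deposited values. In whole lung RNA, fewer cells of a type and less RNA per cell cannot be told apart.

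**Figure D1:**
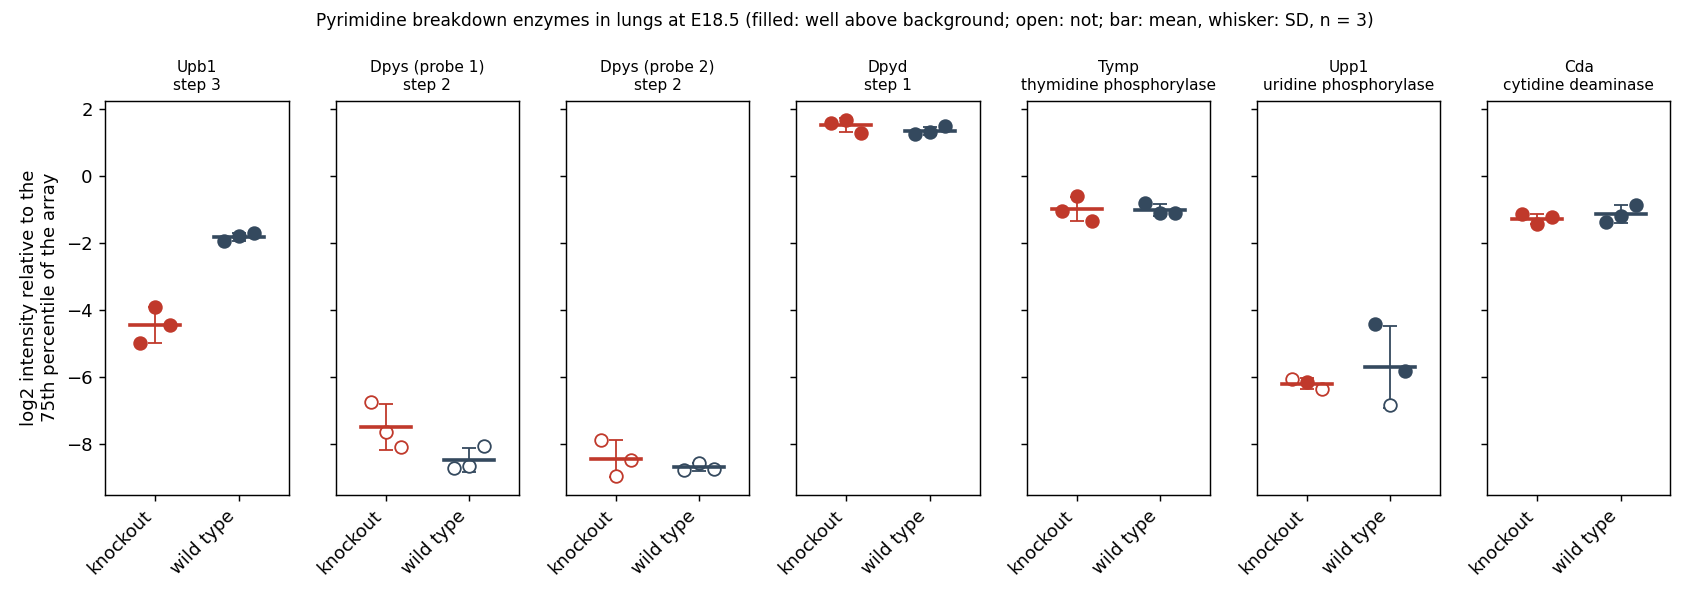
Levels (log2 intensity relative to the 75th percentile of the array) of the 7 probes for the 6 enzymes, with knockout arrays at the left and wild type arrays at the right of each panel; each point is 1 embryo, the bar is the mean and the whisker the SD (n = 3), and open points are not well above background. The Upb1 arrays separate, with means of -4.45 in the knockouts and -1.81 in the wild types, those of Dpyd, Tymp and Cda overlap, and both Dpys probes are open on all 6 arrays. Heights are not comparable between panels.

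Cda, the deaminase that feeds cytidine into the route, had levels of -1.15, -1.45 and -1.24 in knockouts 1, 2 and 3, and of -1.37, -1.18 and -0.85 in wild types 1, 2 and 3. The groups overlapped, with the highest value in wild type 3 and the lowest in knockout 2. The difference was -0.14 (SE 0.16, 95% confidence interval -0.52 to 0.24).

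Tymp, thymidine phosphorylase, also known as platelet-derived endothelial cell growth factor, had levels of -1.04, -0.61 and -1.34 in the knockouts and of -0.81, -1.12 and -1.12 in the wild types. Knockouts 2 and 3 held the highest and the lowest value of the 6 arrays, so that the wild type values lay within the knockout range. The difference was 0.021 (SE 0.20, interval -0.45 to 0.49), which took the other sign in 8 of 19 alternative analyses.

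Upp1, uridine phosphorylase, was close to the detection limit. Its probe was well above background on 1 of 3 knockout arrays and on 2 of 3 wild type arrays. The levels were -6.07, -6.13 and -6.36 in the knockouts, of which only knockout 2 was well above background, and -4.40, -6.83 and -5.82 in the wild types, of which wild types 1 and 3 were. Wild type 1 stood highest and wild type 2 lowest, so the spread within the wild types (SD 1.22) was wider than the difference of the means, -0.50, and the gene was not tested. Intensities of this probe were 20.5 to 24.2 in the knockouts and 13.4 to 79.1 in the wild types.

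Dpyd, the dehydrogenase that is known to limit the rate of the route, had levels of 1.57, 1.67 and 1.27 in knockouts 1, 2 and 3, and of 1.23, 1.29 and 1.48 in wild types 1, 2 and 3. The groups overlapped, since knockout 3 lay below wild types 2 and 3. The difference was 0.17 (SE 0.14, interval -0.17 to 0.50). It was 0.0027 within the slide that held knockout 3 and wild types 1 and 2.

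Dpys, the ring-opening enzyme between Dpyd and Upb1, was not well above background at either probe on any of the 6 arrays. Its intensities were 3.31 to 15.1 in the knockouts and 3.77 to 6.10 in the wild types, with errors of the scanner software of 3.08 to 6.95 in the knockouts and 3.52 to 4.03 in the wild types. No difference is given for it, because both groups have only an upper bound.

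Upb1, the last enzyme of the route, had levels of -4.99, -3.91 and -4.46 in knockouts 1, 2 and 3, and of -1.94, -1.80 and -1.70 in wild types 1, 2 and 3. Every knockout lay below every wild type with a gap of 1.96 between the nearest arrays, and the knockouts spread more widely (SD 0.54) than the wild types (SD 0.12). The groups likewise did not overlap in 31.3% of all features, and with the knockouts lower in 14.3%. The difference was -2.64 (SE 0.26, interval -3.24 to -2.03), or 6.21-fold lower (interval 4.08 to 9.47).

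The probe stayed well above background on all 6 arrays, so transcript was still detected in the knockout lungs. Before scaling, its intensity was 51.2, 108.4 and 76.9 in knockouts 1, 2 and 3, against 435.0, 437.3 and 497.9 in wild types 1, 2 and 3. The scanner software gave errors of 8.03 to 11.2 for the knockout intensities and of 43.7 to 49.9 for those of the wild types. These errors are of single spots and do not cover the spread between embryos. By the size of its difference Upb1 was number 7 from the most negative end among 13939 features with a symbol.

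The Upb1 difference was also taken within the splits that the arrays allow, each with 1 array on at least 1 side. It was -2.58 within the slide that held knockout 3 and wild types 1 and 2, and -2.76 between knockout 3 and wild type 3, the 2 arrays that share a number in their original file names. It was -2.75 without wild types 1 and 2, the arrays with Y-linked signal, which leaves 1 wild type. The part of slide and sex in the difference was not tested. The sign was negative in 19 of 19 alternatives, which are not independent checks. Changes of filter or probe choice and the replicate block leave the Upb1 difference at -2.64 by construction. The fits with the slide, the file name number or a term for wild types 1 and 2 repeat the splits above. The call was lost in 6 of the 19. These were the fits with the slide or the number in the file names as a block, those with a term for, or without, wild types 1 and 2, the fit with no filter on dim probes, and the fit without wild type 1, where the difference was -2.70 (limma adjusted p = 0.0677 over all features). With the normexp background correction the difference was -1.85.

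To show what lies in front of these genes, the 300 bases around the start (250 before, 50 after) are given for the 4 enzymes with signal on all arrays, from RefSeq on the assembly GRCm38.p6. They stand on the coding strand, 5′ to 3′, with each CG dinucleotide in capitals. Upb1 lies at chr10:75406661-75406960 (plus strand), Dpyd at chr3:118561930-118562229 (plus strand), Tymp at chr15:89376987-89377286 (minus strand) and Cda at chr4:138367906-138368205 (minus strand). The table holds 5 of the 6 members; Dpys has no entry.
Upb1: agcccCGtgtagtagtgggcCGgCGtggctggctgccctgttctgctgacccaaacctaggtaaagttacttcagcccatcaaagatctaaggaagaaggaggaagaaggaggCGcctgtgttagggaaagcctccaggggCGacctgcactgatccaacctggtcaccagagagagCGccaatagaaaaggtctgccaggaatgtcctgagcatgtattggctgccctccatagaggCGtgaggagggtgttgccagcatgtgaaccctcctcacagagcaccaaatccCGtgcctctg
Dpyd: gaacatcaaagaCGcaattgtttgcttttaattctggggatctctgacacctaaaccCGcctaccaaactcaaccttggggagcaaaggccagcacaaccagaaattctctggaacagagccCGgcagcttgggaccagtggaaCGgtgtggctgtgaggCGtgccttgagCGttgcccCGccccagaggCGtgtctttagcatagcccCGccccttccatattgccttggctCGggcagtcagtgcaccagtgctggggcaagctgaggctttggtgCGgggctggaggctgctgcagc
Tymp: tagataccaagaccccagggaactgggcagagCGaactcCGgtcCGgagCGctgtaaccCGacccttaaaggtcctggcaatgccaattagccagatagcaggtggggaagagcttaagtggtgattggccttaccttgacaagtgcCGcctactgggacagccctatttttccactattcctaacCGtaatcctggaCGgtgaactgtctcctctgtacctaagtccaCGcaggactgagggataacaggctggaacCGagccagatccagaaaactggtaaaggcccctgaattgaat
Cda: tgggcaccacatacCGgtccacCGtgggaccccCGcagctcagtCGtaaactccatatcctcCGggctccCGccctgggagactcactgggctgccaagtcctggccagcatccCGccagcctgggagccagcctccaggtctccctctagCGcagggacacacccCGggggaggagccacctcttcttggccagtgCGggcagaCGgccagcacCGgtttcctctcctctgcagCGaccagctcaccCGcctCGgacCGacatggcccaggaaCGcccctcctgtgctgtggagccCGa

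The Upb1 window held 8 CG dinucleotides, and 51.4% of 32851 promoter windows of the same length held fewer. Dpyd had 11, Tymp 10 and Cda 18, with 58.6%, 56.5% and 70.3% of windows below them, and the median window had 7. The motif CCAAT, searched on both strands, occurred in the Upb1 window 2 times, starting at -71 and -33 from the first base of the gene, and in the Tymp window 2 times, but not in those of Dpyd and Cda. CCAAT is found in 37.4% of all windows. The motif GGGCGG occurred in the Dpyd window 2 times and in the Cda window 1 time, but not in those of Upb1 and Tymp, against 35.7% of all windows, and TATAAA occurred in none of the 4, against 13.6%. The motifs found did not overlap one another.

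The measured genes beside Upb1 did not pass the threshold. The next annotated gene on each side, Gm40694 and 4933407G14Rik, has no probe, and the 5 nearest measured genes on either side were Rsph14, Gnaz, Bcr, Specc1l and Adora2a before it and Gucd1, Snrpd3, Lrrc75b, Ggt5 and Susd2 after it. Of these 10 genes 0 passed the threshold (limma; 1 at an unadjusted p under 0.05, against 25.7% of all features), 7 had a negative and 3 a positive difference, and the median was -0.12 against 0.0083 over all features. The nearest ones, Adora2a, an adenosine receptor, and Gucd1, differed by -0.21 (interval -0.52 to 0.095) and -0.13 (-0.36 to 0.11). Ggt5, a gamma-glutamyl transferase that acts on leukotriene C4, differed by 0.27 (-0.063 to 0.60), and Susd2, a sushi domain protein, by 0.69 (0.12 to 1.26). Lrrc75b differed by 0.75 (-0.060 to 1.56). Without wild type 3 it was called higher (1.16, limma adjusted p = 0.0219), as were 1342 of 19867 features. The other genes, Rsph14, Gnaz, Bcr, Specc1l and Snrpd3, had differences of -0.10, -0.14, -0.30, -0.16 and -0.12. Further probes of Bcr, Specc1l and Gucd1 had positive differences of 0.15 and 0.17, 0.09, and 0.16.

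**Figure D2:**
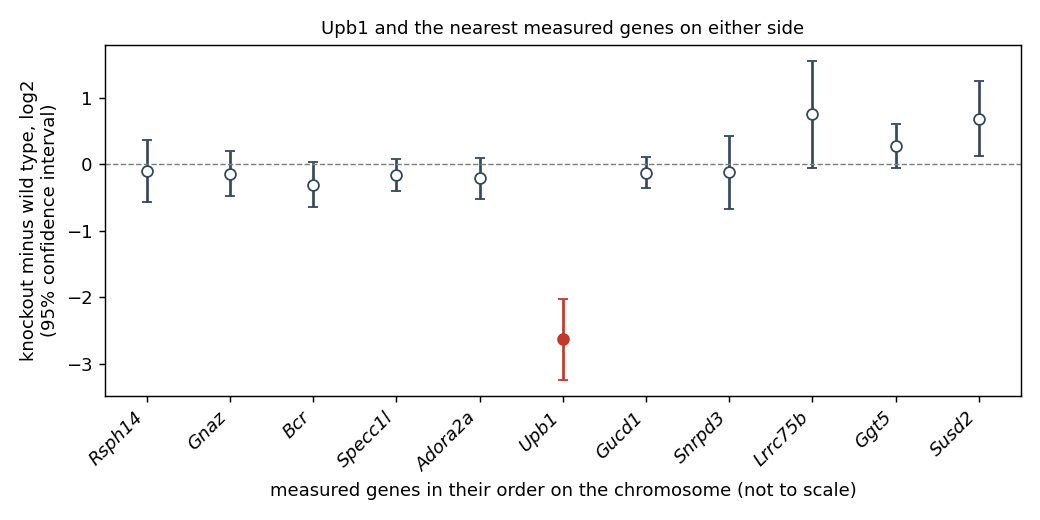
Difference between knockout and wild type lungs (log2, with its 95% confidence interval) for Upb1 and the 5 nearest measured genes on either side, in their order on the chromosome and not to scale. Upb1 lies at -2.64, while the 10 neighbours lie between -0.30 and 0.75 and did not pass the threshold.

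Likeness to the array pattern of Upb1 was measured as the root mean square distance between log2 levels, each centred on its mean over the 6 arrays, among 13926 features with a symbol, and the median distance was 1.34. The nearest was Olfr920, an odorant receptor gene (distance 0.27), followed by Gnmt, glycine N-methyltransferase (0.34), Myl3, a ventricular myosin light chain (0.40), Pln, phospholamban, which restrains the calcium pump of the heart (0.41), and Tdrd1, a tudor protein of germ cells (0.42). Such genes are close because they also separate the groups, so their likeness follows from the same comparison and is not tested. Olfr920 was well above background on 1 of 3 knockout arrays and Pln on 0 of 3, so both entered through the wild type group and their distances rest partly on knockout values near background.

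Gnmt, a methyltransferase best known from liver, had levels of -0.23, 0.42 and -0.48 in knockouts 1, 2 and 3, and of 1.96, 2.03 and 2.09 in wild types 1, 2 and 3. Knockout 2 was the highest of the knockouts, as for Upb1, Olfr920, Pln and Tdrd1 but not Myl3. The 3 wild types of Gnmt lay close together, as for Upb1. The Gnmt difference was -2.12 (SE 0.22), and its call was lost in 8 of 19 alternatives. Olfr920 differed by -2.56, but by -0.76 with the normexp background correction, and its call was lost in 9 of 18 alternatives. Pln was 1.73-fold lower with its knockout values raised to a floor, but differed by -0.44 with normexp on the log2 scale, without a call. Its call was lost in 6 of 18 alternatives. The floor is the lowest intensity that each knockout array measured well above background. It is not a strict limit, since a probe that is not well above background can lie over it. Myl3 differed by -2.44, and by -1.37 at another probe, and Tdrd1 by -2.13, or by -1.37 with normexp. Their calls were lost in 3 and 2 of 19 alternatives.

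**Figure D3:**
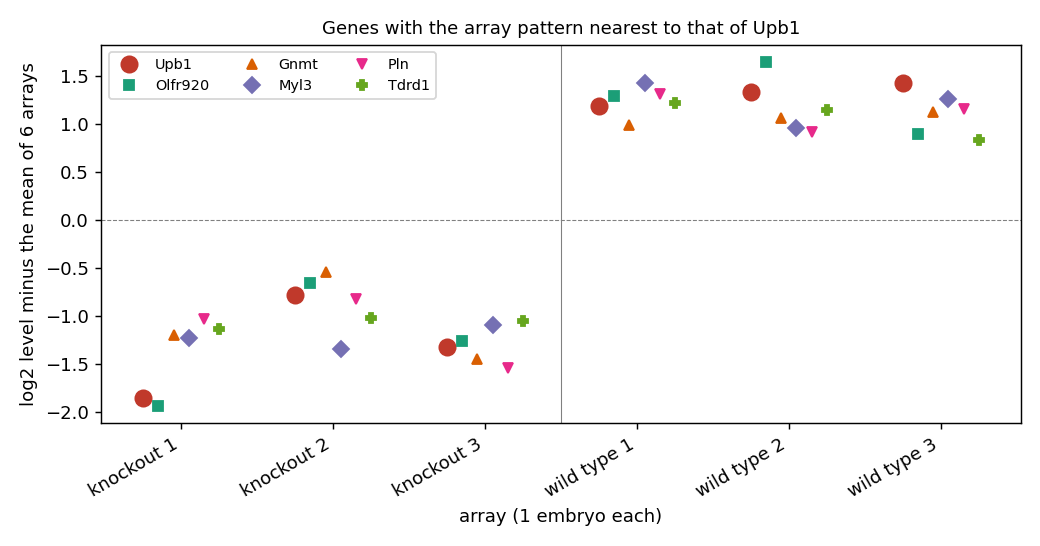
Log2 levels of Upb1 and of the 5 genes nearest to it, each minus its own mean over the 6 arrays, with 1 embryo per position and knockouts at the left. All 6 genes are below 0 in the 3 knockouts and above 0 in the 3 wild types. Knockout 2 is the highest knockout for every gene but Myl3. The knockout values of Pln and 2 of those of Olfr920 are not well above background.

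The enzymes around the route were then read from lists chosen by function, 62 genes in all, of which 56 have a probe, 5 of these were below background on every array and 51 were tested. None of the 51 passed the threshold over all features (limma; 10 at an unadjusted p under 0.05, against 25.7% of all features), 20 differences were positive and 31 negative, and the median was -0.073 against 0.0083 over all features. Without wild type 3, 1972 of 19867 features were called in all, 630 of them lower. Of the 51, 2 were then called lower, Gda (-0.82, limma adjusted p = 0.0299) and Vnn3 (-0.94, limma adjusted p = 0.0428). Nothing is read from this count.

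None of the tested nucleotidases and nucleoside transporters passed. Among the nucleotidases, which strip phosphate from nucleotides, 6 genes were tested, with 1 positive and 5 negative differences and a median of -0.11. Nt5e, the ecto-nucleotidase CD73, had a level of -1.42 ± 0.19 in knockout and -1.14 ± 0.12 in wild type lungs (SD, n = 3 each; difference -0.27, limma adjusted p = 0.247), and Nt5m, the mitochondrial form, had 0.88 ± 0.059 in knockout and 1.12 ± 0.14 in wild type lungs (difference -0.23, limma adjusted p = 0.247). Upp2, the second uridine phosphorylase, and Nt5c1b were below background on all 6 arrays.

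Of the nucleoside transporters 5 were tested, with a median difference of 0.053. Slc29a2, an equilibrative transporter, had -3.64 ± 0.058 in knockout and -4.00 ± 0.072 in wild type lungs (difference 0.37, limma adjusted p = 0.0941, n = 3 each), and Slc29a3, a transporter of lysosomes, differed by 0.21 (SE 0.37). Slc28a2, a concentrative transporter, was below background on all arrays.

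Beyond Upb1, the list of enzymes around its products also holds dipeptidases, which do not use the products themselves. Of this list 4 genes were tested, with 1 positive and 3 negative differences and a median of -0.085. Abat, the transaminase of beta-alanine and of GABA, and Aldh6a1, the dehydrogenase for the semialdehydes formed from both products, differed by 0.080 and -0.032. Cndp2, a dipeptidase, had 1.31 ± 0.11 in knockout and 1.72 ± 0.15 in wild type lungs (SD, n = 3 each; difference -0.41, limma adjusted p = 0.111), and Carns1, the synthase that builds carnosine from beta-alanine, differed by -0.14 (SE 0.12). Agxt2, which transaminates beta-aminoisobutyrate, and Cndp1, the carnosine dipeptidase, were below background on all 6 arrays.

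Routes that build or reuse pyrimidines were read in the same way. The salvage list had 6 tested genes with a median of -0.023, among them the uridine-cytidine kinase Uck1 (-0.28, interval -0.55 to -0.024) and its relative Uckl1 (0.33, -0.038 to 0.70). The synthesis list had 5 with a median of 0.027, among them Ctps, the CTP synthase (-0.34, -0.68 to 0.012), and Cad, the enzyme of the opening steps (-0.081, -0.44 to 0.27). The thymidylate branch had 6 with a median of 0.14, among them Dctd, the dCMP deaminase (0.44, 0.14 to 0.75; another probe, 0.63), and Tyms, thymidylate synthase (0.45, -0.11 to 1.01). Of the 17 genes tested in these 3 lists 0 passed.

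**Figure D4:**
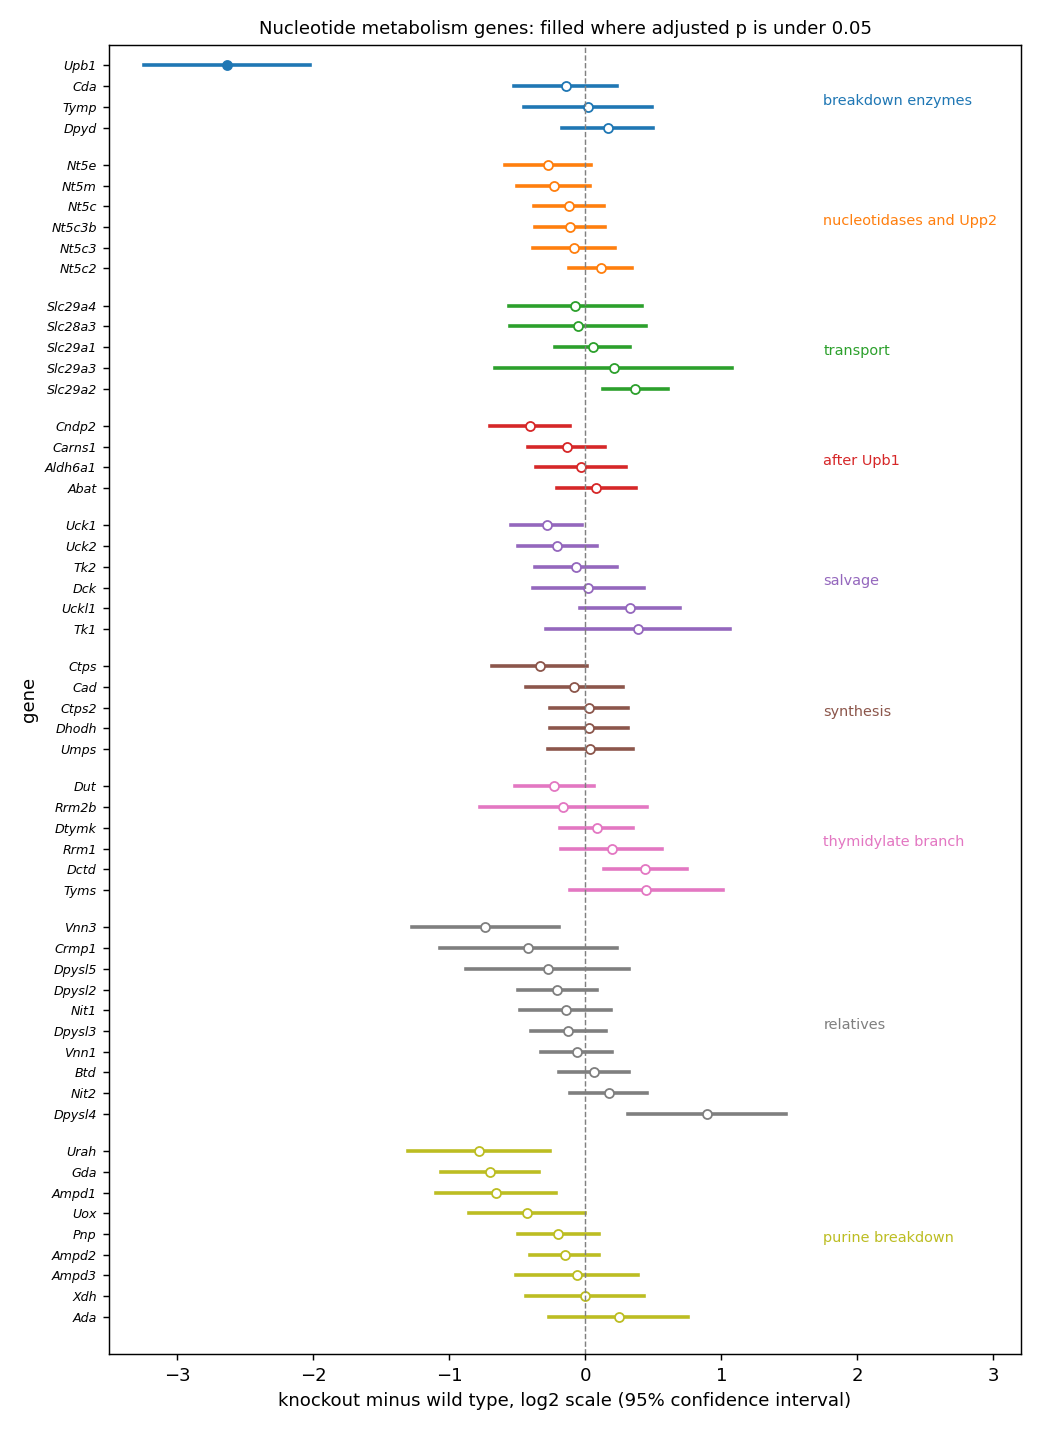
Difference between knockout and wild type lungs (log2, point) with its 95% confidence interval (line) for the 4 tested breakdown enzymes and the 51 tested genes of the other lists, filled where the adjusted p was under 0.05. Upb1 is the filled point at -2.64; the other genes lie between -0.78 and 0.89.

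The genes related to these enzymes in sequence, 10 in all, had a median of -0.14 and included the widest positive difference. Dpysl4, a dihydropyrimidinase-like protein of neurons, had -2.31 ± 0.48 in knockout and -3.21 ± 0.23 in wild type lungs (SD, n = 3 each; difference 0.89, limma adjusted p = 0.0943). Vnn3, a vanin of the nitrilase family to which Upb1 also belongs, had -1.09 ± 0.33 in knockout and -0.35 ± 0.35 in wild type lungs (-0.73, limma adjusted p = 0.113).

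Purine breakdown, the parallel route, had a median of -0.20, the lowest of the 8 lists of related enzymes, with 2 positive and 7 negative differences among 9 tested genes, 4 of them at an unadjusted p under 0.05 (25.7% of all features) and 0 past the threshold (limma). Gda, guanine deaminase, had -4.98 ± 0.18 in knockout and -4.28 ± 0.21 in wild type lungs (SD, n = 3 each; difference -0.70, limma adjusted p = 0.0652; another probe, -0.61). Urah, the hydrolase of 5-hydroxyisourate, had 0.94 ± 0.38 in knockout and 1.72 ± 0.27 in wild type lungs (difference -0.78, limma adjusted p = 0.0971, n = 3 each). Xdh, xanthine dehydrogenase, differed by 0.00027 (SE 0.18).

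Markers of several tissues and cell types were read on the same arrays. Their lists were chosen with earlier results of these data known, so their counts are a description. For hepatocytes, 10 of 11 markers have a probe, and 3 of them (Apoa1, Fga and Fgb) were below background on all arrays. Apob, Ttr, Ahsg and Hnf4a were above it on at least 1 array but were not kept for the test. Of the 3 tested 0 passed (limma), and 1, Tat (-0.43), had an unadjusted p under 0.05, against 25.7% of all features. Alb, albumin, differed by -0.29 (SE 0.22) and Afp, alpha-fetoprotein, by -0.020 (SE 0.36), a value that changed sign between analyses. The summed level of the 3 tested markers, as intensity over the 75th percentile, was 0.125 to 0.204 in the knockouts and 0.172 to 0.227 in the wild types. For kidney tubules, 6 of 8 markers were below background on all arrays, among them Umod, Slc34a1 and Slc22a6, while Cdh16, a cadherin, differed by 0.76 (SE 0.20) and Aqp2 by -0.42 (SE 0.21), neither past the threshold. Without wild type 3, Cdh16 was called higher (0.95, limma adjusted p = 0.0281), as were 1342 of 19867 features. The summed level of these 2 was 20.8 to 22.3 in the knockouts and 9.66 to 16.6 in the wild types. Such a sum follows the brightest probe, here that of Cdh16, which made up 99.3% to 99.5% of it in the knockouts and 98.0% to 99.2% in the wild types, while Aqp2 had a difference of the other sign. These shares, here and below, are of probe intensities and not of transcripts.

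Some markers of cardiac muscle and 1 of neutrophils were called lower, like Upb1. Of 10 cardiac muscle genes 6 fell (limma, adjusted p under 0.05), Tnnt2 (-1.42), Tnni3 (-1.43), Myl3, Myl4 (-1.72), Myl7 (-1.46) and Nkx2-5 (-1.73, or -0.99 with normexp), against 0.619% of all features. The other 4 did not pass, among them Myh7, a myosin heavy chain, which differed by -0.29, a value that changed sign without wild types 1 and 2. All 10 cardiac differences were negative, 8 of them at an unadjusted p under 0.05 (limma, 25.7% of all features). All 6 calls were lost with the slide as a block, with the block on file names and without wild types 1 and 2, and in all Tnnt2 lost its call in 9 and Tnni3 in 7 of 19 alternatives. The summed level of the list was 34.7 to 48.3 in the knockouts and 59.4 to 70.2 in the wild types, of which Myh7, not called, made up 67.5% to 75.5% in the knockouts and 50.3% to 61.7% in the wild types. Of 6 neutrophil genes 1 was called lower, S100a8 (-0.98, limma adjusted p = 0.0375). S100a9 differed by -0.89 and, without wild type 3, was called lower (-1.07, limma adjusted p = 0.0243), as were 630 of 19867 features. Elane was below background on all arrays. All 6 differences were negative, 5 of them at an unadjusted p under 0.05 (limma, 25.7% of all features). The call of S100a8 was lost in 13 of 19 alternatives. The summed level, mostly S100a9, was 14.2 to 18.4 in the knockouts and 23.2 to 35.4 in the wild types. The part of these cells in the Upb1 difference was not tested.

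Among the other lists 0 genes passed (limma), and their counts at an unadjusted p under 0.05 stand against 25.7% of all features. These were 7 macrophage and monocyte genes (4 at an unadjusted p under 0.05; Tyrobp, -0.46, and Mpeg1, -0.53; summed level 14.7 to 17.3 in the knockouts and 18.3 to 25.6 in the wild types), 3 genes of squamous epithelium (2 at an unadjusted p under 0.05; Krt13, 0.29, and Krt5, -0.58; 0.578 to 0.832 in the knockouts and 0.589 to 0.662 in the wild types) and 1 thymocyte gene, Dntt (-0.40, unadjusted p under 0.05; another probe, 1.50; 0.0144 to 0.0170 in the knockouts and 0.0178 to 0.0246 in the wild types). Of the 7 macrophage and monocyte differences 1 was positive, that of Mrc1 (0.15), and 6 were negative. Further probes gave -0.30 and 0.08 for Csf1r, 0.21 for Adgre1 and -0.22 for Mpeg1. Krt14 had the widest difference of the squamous genes (-1.43, limma adjusted p = 0.0521). The squamous sum was mostly Krt13, with 91.8% to 93.0% in the knockouts and 79.9% to 86.8% in the wild types. Without wild type 3, Tyrobp (-0.53, limma adjusted p = 0.0462) and Mpeg1 (-0.74, limma adjusted p = 0.0335) were called lower, as were 630 of 19867 features. The part of these cells in the members' values was not tested.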

How the data were processed

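Lung RNA of 6 embryos was measured on 1 array each (Agilent Whole Mouse Genome, 1 colour). Per the file headers, the intensity of each spot was background-subtracted and detrended within the array by Agilent Feature Extraction 10.7.3.1, on a design that refers to mm9, with no scaling between arrays. The authors also deposited log2 values; set against the scanner files, these equal quantile-normalized log2 intensities (median absolute difference at most 0.000538) minus the wild type median of each probe. The design text names GeneSpring GX11.

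Control spots and 77 to 110 outlier spots per array were left out, each array's 75th percentile (1521.6 to 1687.9) was subtracted on the log2 scale, and spots of a probe were averaged. Between 63.3% and 68.8% of 41174 probes lay well above background, and no spot was saturated. Symbols came from RefSeq genes on GRCm38.p6 by accession (64.8% of probes). That build differs from the array's, so it gave names, gene order and the promoter sequences only. Probes well above background on all arrays of a group were kept, with 1 probe per gene, that of the highest mean. The filter can keep a gene through the group where it is high. Groups were compared with limma 3.58.1 (R 4.3.3; lmFit, eBayes, two-sided, no covariate, Benjamini-Hochberg over 19867 features), and the fit was tested on simulated data. With 3 arrays in each group, their number limits the precision, and nothing but separate embryos is stated of the replicates.

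The members and all lists were chosen with earlier results of these data known. Named were all members, from each list of related enzymes the 2 genes of smallest p and any that passed, 5 measured neighbours of Upb1 per side, the 5 genes nearest in pattern, and from each marker list the 2 of highest mean level and any that passed; Abat, Aldh6a1, Xdh, genes below background and some markers are named besides, chosen after their values were seen. Alternatives changed the scaling, background correction, filter, probe choice, batch terms and arrays used.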

Additional observations from a re-analysis of the deposited data

How the results depend on the processing

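Over 19 alternatives the Upb1 difference ran from -2.91 to -1.85 (limma adjusted p from 0.00129 to 0.336). It lost its call with no filter on dim probes (-2.64, adjusted p = 0.0602), with the slide as a block (-2.58, 0.0869), with the number in the file names as a block (-2.76, 0.336), with a term for wild types 1 and 2 (-2.75, 0.118) and without both of these arrays (-2.75, 0.272). These 5 analyses called 0 members. Leaving out 1 array at a time gave -2.91 to -2.37, with 0 to 1 members called, 0 without wild type 1. The related enzymes called were 0 in all analyses but those without wild type 3 (leaving out 1 array, 0 to 2), and the neighbours called likewise 0 to 1. Over all features 267 were called, against 96 with a filter of at least 1 array, 28 with no filter, 24 with the slide block, 4 with the block on the file names, 26 with the term, 0 without wild types 1 and 2 (limma; 1378 at an unadjusted p under 0.05) and 34 to 1972 without 1 array (1972 without wild type 3).

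With the replicate number as a block (replicate block) 55 were called and Upb1 kept its call (-2.64, adjusted p = 0.0234). Deviations of arrays with the same number correlated at -0.024, 0.038 and 0.027, so the numbers did not pair the arrays.

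Differences that were not called changed sign as follows. With the block on the file names, values were 0.12 for Adora2a, 0.18 for Aqp2, 0.028 for Bcr, 0.084 for Cad, -0.21 for Dpyd, 0.0042 for Mpeg1, 0.019 for Nt5e, -0.22 for Tymp and -0.22 for Tyms. With the slide block they were 0.039 for Cda, -0.058 for Sftpc, 0.045 for Snrpd3 and -0.37 for Tymp. With the term for wild types 1 and 2, and with the same values without these arrays, they were 0.34 for Afp, 0.11 for Cad, 0.039 for Gnaz, -0.070 for Lrrc75b, 0.064 for Myh7, 0.029 for Sftpa1, -0.13 for Slc29a3 and -0.0012 for Tyms. Tymp was at -0.026 both with quantile normalization and in the authors' deposited values, and at -0.13 with median scaling, which moved the median of all features to -0.14; Sftpc was then at -0.024. Afp was at 0.023 with the other background correction. Leaving out 1 array gave -0.44 to 0.26 for Afp, -0.19 to 0.018 for Cad, -0.33 to 0.041 for Rsph14, -0.20 to 0.44 for Slc29a3, -0.32 to 0.12 for Snrpd3 and -0.17 to 0.19 for Tymp.

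The cause of these changes was not tested. Background correction with normexp used the median spot signal, and was chosen after seeing the data; the planned version on mean signals was not run. Dpys and Upp1 are limited by signal over background.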
